A study of Homo sapiens with 9 samples.

Results

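Genes of the mesenchymal programme and of TGF-beta signalling were followed in HepG2 cells after knockdown of HNF4alpha together with HNF4gamma. They are 10 of 19775 annotated genes, namely TGFB1, TGFB2, THBS1, FN1, TIMP1, S100A4, ZEB1, SNAI1, SNAI2 and TWIST1. They were chosen by name with earlier results of these data known. Each was read from its brightest probe set among those annotated to its symbol alone. HepG2 is a line derived from a human hepatocellular carcinoma. In the knockdown1 and knockdown2 groups it carried small interfering RNAs against both HNF4 proteins, and the control group was the knockdown control. The labels do not say how knockdown1 differs from knockdown2, nor what the control cells received. Each group had 3 arrays of total RNA, numbered 1 to 3, and nothing in the labels says that these were separate cultures. The p-values therefore cover array-to-array spread that could be technical.

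TGF-beta is secreted in a latent complex, is released by activators such as thrombospondin 1, and signals through paired serine/threonine kinase receptors to SMAD transcription factors. Among its best known effects on epithelial cells is the epithelial-mesenchymal transition, in which factors of the SNAI, ZEB and TWIST families silence E-cadherin, while fibronectin and other matrix genes are induced. In liver, HNF4alpha maintains the epithelial state of hepatocytes, and TGF-beta drives matrix deposition by stellate cells. Hepatocytes also make fibronectin as a plasma protein without any such transition.

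Values are linear MAS5 signals, a brightness on a relative scale without any read depth, multiplied per array (factors 0.898 to 1.15) so that every array had the same median of 14.1. Log2 differences are differences of log2(signal + 1.41), which understates changes of dim genes. A gene was tested when 3 or more of the 9 arrays had one of its probe sets above the array median, which 13056 genes did, and it was called at a limma Benjamini-Hochberg adjusted p under 0.05 over all of them. HNF4G, the HNF4gamma gene, had lower signals in all 6 knockdown arrays than in control, with a log2 difference of -1.28 (SE 0.28, limma's adjusted p = 5.38e-04) in knockdown1 and -0.56 (SE 0.28, limma's adjusted p = 0.142) in knockdown2. HNF4A was not analysed here. All 10 hepatocyte markers examined, albumin and apolipoprotein B among them, passed the filter in these cells, while 4 were called lower in knockdown1, 3 in knockdown2 and 0 higher in either. APOA1 averaged 2884 in knockdown1, 3236 in knockdown2 and 5001 in control. The summed signal of the 10 was 33582 to 40437 in knockdown1, 37512 to 40192 in knockdown2 and 39227 to 47555 in control. Of the 12 markers of stellate cells and fibroblasts 7 passed the filter, COL1A1 at 46.3 to 73.2 being the brightest, 0 were called higher in either knockdown and 1 (DCN) was called lower in knockdown1. They summed to 180 to 246 in knockdown1, 168 to 208 in knockdown2 and 176 to 220 in control, and their part in the results was not tested. The 5 cholangiocyte markers summed to 2740 to 3472 in knockdown1, 1991 to 2292 in knockdown2 and 1733 to 2535 in control, with KRT19 called higher in both knockdowns and EPCAM called higher in knockdown1 and lower in knockdown2.

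TGFB1, THBS1, TIMP1 and S100A4 were higher in both knockdowns than in control, and ZEB1 was higher in knockdown2. Of the 10 genes 7 passed the filter. As the 10 were chosen with earlier results of these data known, the counts and medians that follow are descriptions. In knockdown1 4 of the 7 rose and 0 fell, where 33.3% of all tested genes were called and 14.3% were called higher. In knockdown2 5 of the 7 rose and 0 fell, against 27.6% called and 13.7% called higher among all tested genes. For the mean of both knockdowns 4 rose and 0 fell, against 32.6% called and 14.7% called higher. The median log2 difference of the 7 was 0.68 in knockdown1 and 1.41 in knockdown2, beside -0.01 and 0.01 over all tested genes. Both comparisons use the same 3 control arrays, so they are not independent of each other. Between the knockdowns 2 of the 7, S100A4 and ZEB1, were lower in knockdown1 than in knockdown2, where 26.6% of all tested genes were called and 16.1% were called lower. By a count without a test, the arrays of 4 of the 7 genes did not overlap with control in knockdown1 (39.8% of all tested genes, 18.1% higher and 21.7% lower), and those of 5 in knockdown2 (39.7%, 19.9% higher and 19.8% lower). All 6 knockdown arrays lay outside the control range for 4 genes (20.9%, 9.76% higher and 11.2% lower), and the knockdowns did not overlap each other for 2 (43.7%, 18.9% higher and 24.8% lower). The RNA is that of whole cultures, so more RNA per cell and more cells that make it cannot be told apart.

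**Figure D1:**
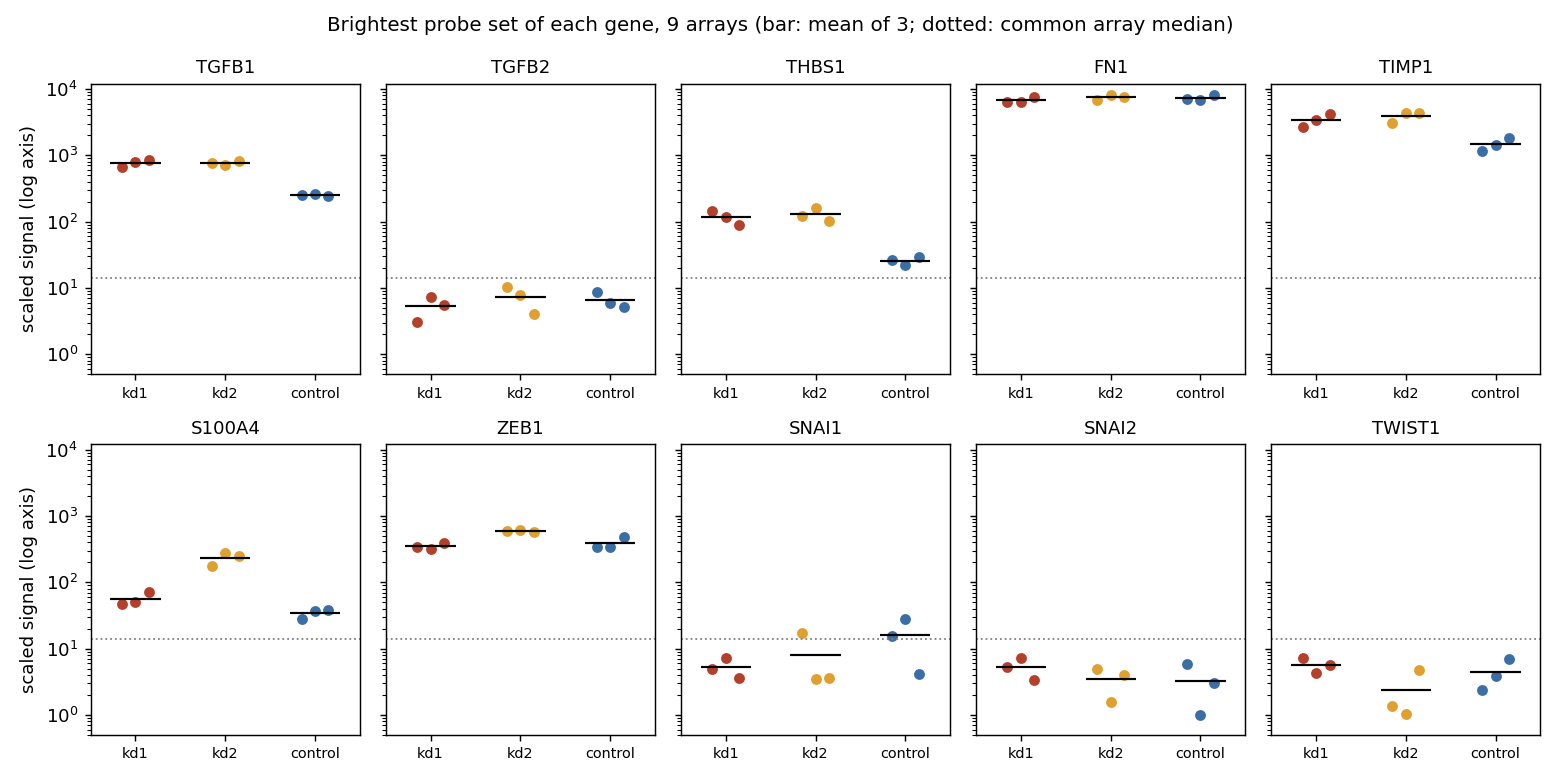
Scaled signal of the brightest probe set of each gene on a log axis, with 1 point per array for knockdown1 (kd1), knockdown2 (kd2) and control, a bar at the mean of 3 arrays and a dotted line at the common array median of 14.1. TGFB1, THBS1, TIMP1 and S100A4 lie above control in all 6 knockdown arrays, while TGFB2, SNAI2 and TWIST1 lie below the dotted line in all 9.

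TGFB1 encodes transforming growth factor beta 1, the ligand most tied to fibrosis. Its signal was 674, 790 and 840 in knockdown1 and 759, 724 and 825 in knockdown2, against 249.5, 259 and 244 in control. Every knockdown array was higher than every control array, and the knockdown groups overlapped each other. The log2 difference was 1.60 in knockdown1 (SE 0.14, limma's adjusted p = 4.25e-10) and 1.61 in knockdown2 (SE 0.14, limma's adjusted p = 7.69e-10), a rise of about 3.04-fold for each on the scale with the pseudocount. The knockdowns differed by -0.01, with a 95% interval from -0.29 to 0.28. A dimmer TGFB1 probe set was above the array median in 3 arrays and did not pass in any comparison. It read 4.04, 4.22 and 3.34 in knockdown1 and 21.2, 20.0 and 7.89 in knockdown2, against 8.68, 2.80 and 17.1 in control. With the mean of both probe sets the TGFB1 difference in knockdown1 was 0.40 and no longer passed (limma's adjusted p = 0.187).

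TGFB2, the second ligand, was not tested, since none of its 5 probe sets passed the filter. Its brightest probe set read 3.10, 7.27 and 5.43 in knockdown1 and 10.2, 7.67 and 4.0 in knockdown2, against 8.68, 5.97 and 5.16 in control. These values overlap and lie below the common median. Of the other 4 TGFB2 probe sets 3 also overlapped with control, 1 of them with every knockdown1 array below every knockdown2 array. In the remaining 1 every knockdown array was below every control array, with 5.36, 2.07 and 5.43 in knockdown1 and 5.6, 4.04 and 1.58 in knockdown2, against 7.56, 14.1 and 13.4 in control, all at or below the common median and without a test. TGFB3, another ligand of the family, was tested, and its log2 difference of 0.17 over both knockdowns did not pass (SE 0.19, limma's adjusted p = 0.552).

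THBS1 encodes thrombospondin 1, a matricellular protein that binds latent TGF-beta and can activate it. Its brightest probe set gave 143, 119 and 89.9 in knockdown1 and 123, 158 and 102 in knockdown2, against 26.1, 21.9 and 28.8 in control. The lowest knockdown array was thus well above the highest control array. THBS1 rose by 2.12 on the log2 scale in knockdown1 (SE 0.20, limma's adjusted p = 1.82e-09) and by 2.24 in knockdown2 (SE 0.20, limma's adjusted p = 1.20e-09), and the interval of their difference ran from -0.53 to 0.29. Of the 7 THBS1 probe sets 3 passed the filter, and all 3 rose in both knockdowns, with log2 differences over both of 2.18, 1.59 and 1.49 (limma's adjusted p over all probe sets from 1.96e-08 to 8.90e-07). The other 4 lay below the median on every array. Among the other thrombospondins, THBS3 rose by 1.5 in knockdown2 (limma's adjusted p = 0.0101), and its difference of 0.22 in knockdown1 did not pass (limma's adjusted p = 0.749).

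TIMP1, an inhibitor of matrix metalloproteinases that TGF-beta and growth factors induce, was bright throughout. Its signal was 2707, 3369 and 4252 in knockdown1 and 3102, 4296 and 4346 in knockdown2, against 1169, 1448 and 1809 in control. No knockdown array fell within the control range. TIMP1 rose by 1.22 on the log2 scale in knockdown1 (SE 0.17, limma's adjusted p = 1.24e-06), and by 1.41 in knockdown2 (SE 0.17, limma's adjusted p = 1.83e-07), and knockdown1 minus knockdown2 was -0.19, with an interval from -0.53 to 0.15.

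S100A4, also called fibroblast-specific protein 1, is a calcium-binding protein used as a marker of mesenchymal and motile cells. It was read by 1 probe set, with 46.5, 50.4 and 70.3 in knockdown1 and 175, 272 and 248 in knockdown2, against 27.5, 36.3 and 38.1 in control. The 3 groups did not overlap, with knockdown2 highest and control lowest. S100A4 rose by 2.71 on the log2 scale in knockdown2 (SE 0.20, limma's adjusted p = 4.06e-11), which is 6.54-fold on the scale with the pseudocount. In knockdown1 it rose by 0.68 (SE 0.20, limma's adjusted p = 0.00899). That call ended without control replicate 1 (0.54, limma's adjusted p = 0.0593) and without knockdown1 replicate 3 (0.51, limma's adjusted p = 0.0774). Knockdown1 was lower than knockdown2 by 2.03 on the log2 scale, as the difference of -2.03 shows (SE 0.20, limma's adjusted p = 7.61e-09).

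The start regions of these 4 genes are shown because the genes were higher in both knockdowns, each as the 250 bases before its start in RefSeq's GRCh38.p14, 5′ to 3′ on the gene's strand. Capitals mark matches, on either strand, to AGGTCA (the core site that nuclear receptors bind), CAGACA (a SMAD box), TGANTCA (AP-1), GGGCGG (the GC box of Sp1) or CAGGTG (the E-box of Snail and ZEB factors). AGGTCA and CAGGTG share letters and could overlap, but no 2 matches here did.
TGFB1, chr19:41353923-41354172, minus strand: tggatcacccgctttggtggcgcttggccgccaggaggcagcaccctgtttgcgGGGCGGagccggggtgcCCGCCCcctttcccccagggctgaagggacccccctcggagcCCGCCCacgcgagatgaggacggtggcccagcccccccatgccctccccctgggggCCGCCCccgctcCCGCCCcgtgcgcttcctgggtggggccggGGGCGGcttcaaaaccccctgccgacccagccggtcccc
THBS1, chr15:39580829-39581078, plus strand: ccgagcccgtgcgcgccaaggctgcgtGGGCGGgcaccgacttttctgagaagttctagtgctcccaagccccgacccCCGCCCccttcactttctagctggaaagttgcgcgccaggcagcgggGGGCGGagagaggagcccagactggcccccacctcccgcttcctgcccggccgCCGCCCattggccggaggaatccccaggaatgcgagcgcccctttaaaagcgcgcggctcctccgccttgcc
TIMP1, chrX:47582186-47582435, plus strand: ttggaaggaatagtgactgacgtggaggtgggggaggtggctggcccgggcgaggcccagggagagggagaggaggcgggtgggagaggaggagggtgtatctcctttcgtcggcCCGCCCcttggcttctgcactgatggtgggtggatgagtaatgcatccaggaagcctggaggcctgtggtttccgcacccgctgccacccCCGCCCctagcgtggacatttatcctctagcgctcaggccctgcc
S100A4, chr1:153545807-153546056, minus strand: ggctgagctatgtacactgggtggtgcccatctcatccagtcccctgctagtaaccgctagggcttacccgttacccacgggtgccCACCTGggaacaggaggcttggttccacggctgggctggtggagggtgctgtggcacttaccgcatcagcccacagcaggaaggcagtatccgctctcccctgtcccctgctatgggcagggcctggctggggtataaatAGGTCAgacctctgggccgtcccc

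The GC box was matched 6 times in TGFB1, 4 times in THBS1 and 2 times in TIMP1, and 0 times in S100A4. It occurs in 42.6% of 35116 start regions of the same length. S100A4 had 1 match to the nuclear receptor site, 24 bases before the start, and 1 to the E-box, which occur in 12.1% and 17.5% of these regions. The SMAD box and AP-1, present in 13.6% and 6.57%, were matched 0 times in the 4 windows. A match is only a run of letters, and its absence says nothing of the factor. Of the 10 genes 7 had an entry in the RefSeq promoter table, and SNAI1, SNAI2 and TWIST1 were not matched.

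FN1, which encodes fibronectin, a matrix and plasma protein that is a standard readout of the mesenchymal state, gave different answers from different probe sets. Its brightest probe set read 6378, 6438 and 7629 in knockdown1 and 6786, 8119 and 7467 in knockdown2, against 6955, 6683 and 8024 in control. The groups overlap, and the log2 difference was -0.08 in knockdown1 (95% interval from -0.33 to 0.16, limma's adjusted p = 0.643) and 0.05 in knockdown2 (95% interval from -0.20 to 0.29, limma's adjusted p = 0.826). Of the 7 FN1 probe sets the 4 brightest, with group means from 5619 to 7457, passed in no comparison, with log2 differences over both knockdowns from -0.02 to 0.16. Some of these 4, the brightest included, are of the type that can match related transcripts, and the part of this was not tested.

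**Figure D2:**
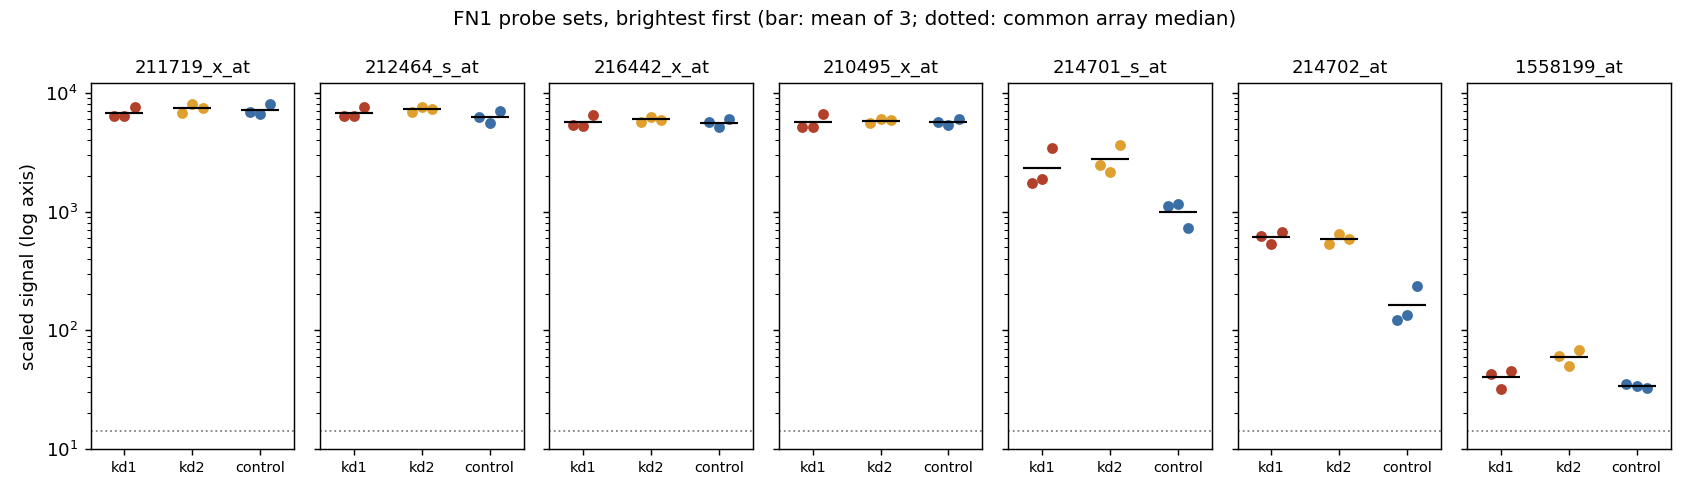
Scaled signal of the 7 FN1 probe sets on a log axis, ordered from brightest to dimmest, with 1 point per array for knockdown1 (kd1), knockdown2 (kd2) and control, a bar at the mean of 3 arrays and a dotted line at the common median of 14.1. The first 4 overlap between groups, while the fifth and the sixth lie above control in all 6 knockdown arrays.

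The sixth FN1 probe set by brightness read 618, 532 and 667 in knockdown1 and 529, 643 and 587 in knockdown2, against 121, 133 and 235 in control. All 6 knockdown arrays were above the control range, and the log2 difference was 1.94 in knockdown1 (SE 0.19, limma's adjusted p = 2.20e-07) and 1.89 in knockdown2 (SE 0.19, limma's adjusted p = 5.53e-07). The fifth, annotated to the same source record, read 1751, 1863 and 3403 in knockdown1 and 2463, 2144 and 3650 in knockdown2, against 1107, 1166 and 726 in control. It rose by 1.19 in knockdown1 (SE 0.23, limma's adjusted p = 5.24e-04) and by 1.45 in knockdown2 (SE 0.23, limma's adjusted p = 9.53e-05) and likewise did not overlap with control. The dimmest rose by 0.77 in knockdown2 (SE 0.20, limma's adjusted p = 0.00888), and its difference of 0.22 in knockdown1 did not pass. With the mean over all FN1 probe sets the gene would be called higher, by 0.48 in knockdown1 (limma's adjusted p = 0.00642) and 0.64 in knockdown2 (limma's adjusted p = 8.88e-04). Of the 154 tested genes with a mean signal above 4000, 11% were called in knockdown1 and 9.09% in knockdown2, where all tested genes gave 33.3% and 27.6%. The part of this brightness in the FN1 readings was not tested.

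Over all 10 genes there were 30 probe sets, of which 19 passed the filter. Adjusted over 29651 probe sets, 8 rose and 0 fell in knockdown1 (27.6% of all probe sets called, 11.9% higher and 15.7% lower), and 12 rose and 0 fell in knockdown2 (23.1% called, 12.6% higher and 10.5% lower). For the mean of both knockdowns 10 rose and 0 fell (27.2% called, 13.1% higher and 14.1% lower). Between the knockdowns 4 were lower in knockdown1 and 0 were higher (22% called, 7.98% higher and 14.1% lower), 1 of S100A4 and 3 of ZEB1.

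ZEB1, a zinc finger and homeodomain repressor of E-cadherin, was above the median on all 9 arrays. Its brightest probe set gave 341, 313 and 387 in knockdown1 and 600, 615 and 568 in knockdown2, against 344, 340 and 477 in control. The knockdown2 arrays lay above all others, while knockdown1 and control overlapped. ZEB1 rose by 0.63 on the log2 scale in knockdown2 (SE 0.15, limma's adjusted p = 0.00213). In knockdown1 the difference was -0.14, with a 95% interval from -0.46 to 0.17, and it did not pass (limma's adjusted p = 0.514). The difference of knockdown1 from knockdown2 was -0.78 (SE 0.15, limma's adjusted p = 2.63e-04). All 4 ZEB1 probe sets passed the filter, all 4 had every knockdown2 array above every control array, and 3 of the 4 passed the test there. Over both knockdowns the gene missed the threshold (0.24, limma's adjusted p = 0.166). It passed at 0.40 without control replicate 3 (limma's adjusted p = 0.00875) and at 0.55 with the mean of its probe sets (limma's adjusted p = 0.00797). ZEB1 also passed at 0.27 on the values as deposited (limma's adjusted p = 0.00993) and at 0.27 after quantile normalization (limma's adjusted p = 0.00941).

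SNAI1, the Snail repressor that acts early in the transition, was above the common median in 3 arrays and so only just entered the test. It read 4.89, 7.18 and 3.55 in knockdown1 and 17.0, 3.53 and 3.58 in knockdown2, against 15.7, 27.7 and 4.13 in control. Control and knockdown2 each spread widely, and the log2 differences of -1.12 in knockdown1 (95% interval from -2.74 to 0.49) and -0.87 in knockdown2 (95% interval from -2.48 to 0.74) did not pass. These intervals set only wide limits on SNAI1.

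SNAI2 (Slug) and TWIST1, further repressors of E-cadherin, did not pass the filter. SNAI2 read 5.36, 7.18 and 3.34 in knockdown1 and 4.87, 1.56 and 4.0 in knockdown2, against 5.93, 0.994 and 2.98 in control. TWIST1 read 7.14, 4.22 and 5.74 in knockdown1 and 1.35, 1.04 and 4.74 in knockdown2, against 2.35, 3.89 and 6.99 in control. Each gene overlapped between groups and stayed below the common median on all 9 arrays. Of 15 EMT transcription factors listed, 13 were annotated and 4 were tested. TCF3, which encodes the E proteins E12 and E47, was the only 1 of the 4 called over both knockdowns, with 545 ± 60.0 in knockdown1, 560 ± 13.3 in knockdown2 and 182 ± 39.5 in control (SD, n = 3 each; log2 difference over both 1.62, SE 0.13, limma's adjusted p = 2.53e-10). Its probe set is of the type that can match related transcripts. ZEB2, SNAI3 and TCF4 did not pass the filter, and TWIST2 fell by 0.74 in knockdown1 (limma's adjusted p = 0.0159) but not over both knockdowns (-0.49, limma's adjusted p = 0.0701), a difference that passed under 3 of the alternatives.

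**Figure D3:**
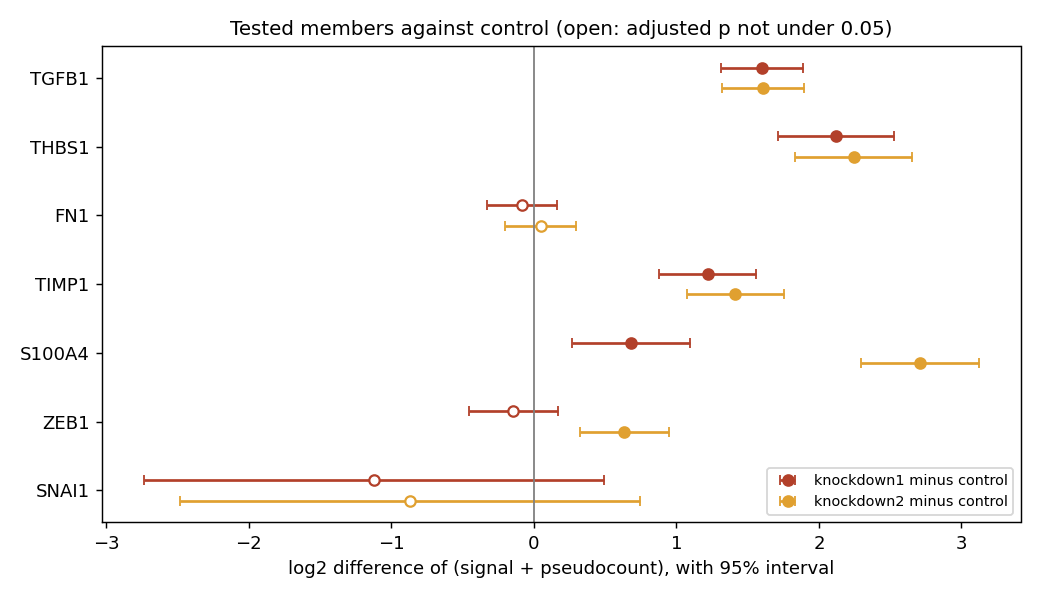
Log2 difference from control (x axis) of the 7 genes that were tested, for knockdown1 and knockdown2, with 95% intervals from limma. Filled points had an adjusted p under 0.05. THBS1, TGFB1 and TIMP1 have overlapping intervals in the knockdowns, S100A4 and ZEB1 do not, and SNAI1 has the widest intervals.

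The other genes of the pathway were taken from lists written with earlier results of these data known, so their counts are descriptions. Over all tested genes 14.7% were called higher and 17.9% lower over both knockdowns, which is the share to read each list's counts against. Among 15 genes of TGF-beta ligands, latency and activation, 9 were tested, 3 rose and 0 fell over both knockdowns (14.7% and 17.9% of all tested genes), with a median log2 difference of 0.21. Besides TGFB1 and THBS1 the gene that rose was ITGAV, the integrin alpha V chain of receptors that activate latent TGF-beta, at 2258 ± 359 in knockdown1, 3383 ± 99.9 in knockdown2 and 1697 ± 258 in control (SD, n = 3 each). Its log2 difference was 0.71 (SE 0.12, limma's adjusted p = 2.97e-05). The latent TGF-beta binding protein genes LTBP1, LTBP2, LTBP3 and LTBP4 and the convertase gene FURIN did not pass.

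Among TGF-beta family receptors 4 of 9 tested genes rose and 0 fell over both knockdowns (14.7% and 17.9% of all tested genes), with a median of 0.00. In knockdown1 2 rose and 1 fell, the activin receptor gene ACVR2B, named after its values were seen (-0.67, limma's adjusted p = 0.00102). BAMBI, a decoy receptor that dampens the signal, had 789, 743 and 812 in knockdown1 and 808, 687 and 752 in knockdown2, against 353, 355 and 446 in control, a log2 difference of 1.00 (SE 0.12, limma's adjusted p = 2.58e-07). TGFBR2, the ligand-binding receptor, rose by 0.52 (SE 0.11, limma's adjusted p = 2.99e-04) with all 6 knockdown arrays above control. TGFBR1, the signalling receptor, was called at 0.54 (SE 0.14, limma's adjusted p = 0.00422), but the mean of its probe sets gave -0.011 (limma's adjusted p = 0.977). Its knockdown1 arrays overlapped with control. With the 6 knockdown arrays as 1 group the calls of TGFBR1 (limma's adjusted p = 0.101) and of TGFBR3 (limma's adjusted p = 0.1) ended. TGFBR3 was named after its values were seen.

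SMADs and their regulators held 13 tested genes, of which 4 rose and 2 fell over both knockdowns (median 0.01, with 14.7% higher and 17.9% lower among all tested genes). In knockdown1 0 rose and 2 fell, and in knockdown2 3 rose and 3 fell. The 4 that rose were TGIF2 and, named after their values were seen, SMURF1, TGIF1 and STRAP. With the 6 knockdown arrays as 1 group each of these calls ended (limma's adjusted p = 0.0995, 0.0531, 0.521 and 0.114). TGIF1, a SMAD corepressor, differed by -0.31 in knockdown1 (limma's adjusted p = 0.0994) and rose by 1.12 in knockdown2 (limma's adjusted p = 7.74e-07). The signal carriers SMAD2, SMAD3 and SMAD4 did not pass. Both that fell encode inhibitory SMADs. SMAD7 read 128, 112 and 142 in knockdown1 and 214, 136 and 216 in knockdown2, against 278, 211 and 321 in control, a log2 difference of -0.79 (SE 0.16, limma's adjusted p = 2.67e-04). The knockdown2 and control arrays overlapped for SMAD7. SMAD6 fell by 0.84 (SE 0.17, limma's adjusted p = 2.93e-04) without overlap, although the mean of its probe sets gave -0.34 and did not pass (limma's adjusted p = 0.449). TGIF2, a related corepressor, had a difference of 0.49 (SE 0.14, limma's adjusted p = 0.00784).

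Genes known to be induced by TGF-beta moved in both directions, with 7 of 19 tested higher and 4 lower over both knockdowns (median -0.02, with 14.7% higher and 17.9% lower among all tested genes). CDKN2B, the p15 inhibitor of the cell cycle, was at 60.4 ± 7.95 in knockdown1, 78.1 ± 4.51 in knockdown2 and 6.01 ± 4.98 in control (SD, n = 3 each). All 3 control arrays lay below the common median, so CDKN2B passed the filter only through the knockdown arrays. Its place among the 7 higher genes and its log2 difference are descriptions. The difference was 3.59, but 2.07 with a pseudocount equal to the common median and 2.79 without control replicate 1. BHLHE40, a transcriptional repressor, rose by 1.31 (SE 0.13, limma's adjusted p = 3.39e-09). The others that rose were TIMP1 and, named after their values were seen, KLF10, CDKN1A, JUNB and TPM1. Under 10 alternative settings the log2 difference was 1.17 to 1.23 for KLF10, 0.98 to 1.03 for CDKN1A and 0.78 to 0.95 for JUNB. These 3 stayed called in each, while TPM1 ranged from 0.12 to 0.44 and its call ended under 3. LOX, the lysyl oxidase that crosslinks collagen, fell most, with 112, 108 and 108 in knockdown1 and 217, 181 and 186 in knockdown2, against 1345, 1043 and 1321 in control (log2 difference -3.07, SE 0.13, limma's adjusted p = 5.93e-16). Without control replicate 1, 2 or 3 another LOX probe set became the brightest, and the difference was -2.31, -2.44 or -2.43. With the mean of its probe sets it was -2.42. The others that fell, named after their values were seen, were CCN2 (connective tissue growth factor), SMAD7 and TIMP3. CCN2 had a log2 difference of -0.59 (SE 0.11, limma's adjusted p = 1.33e-04).

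**Figure D4:**
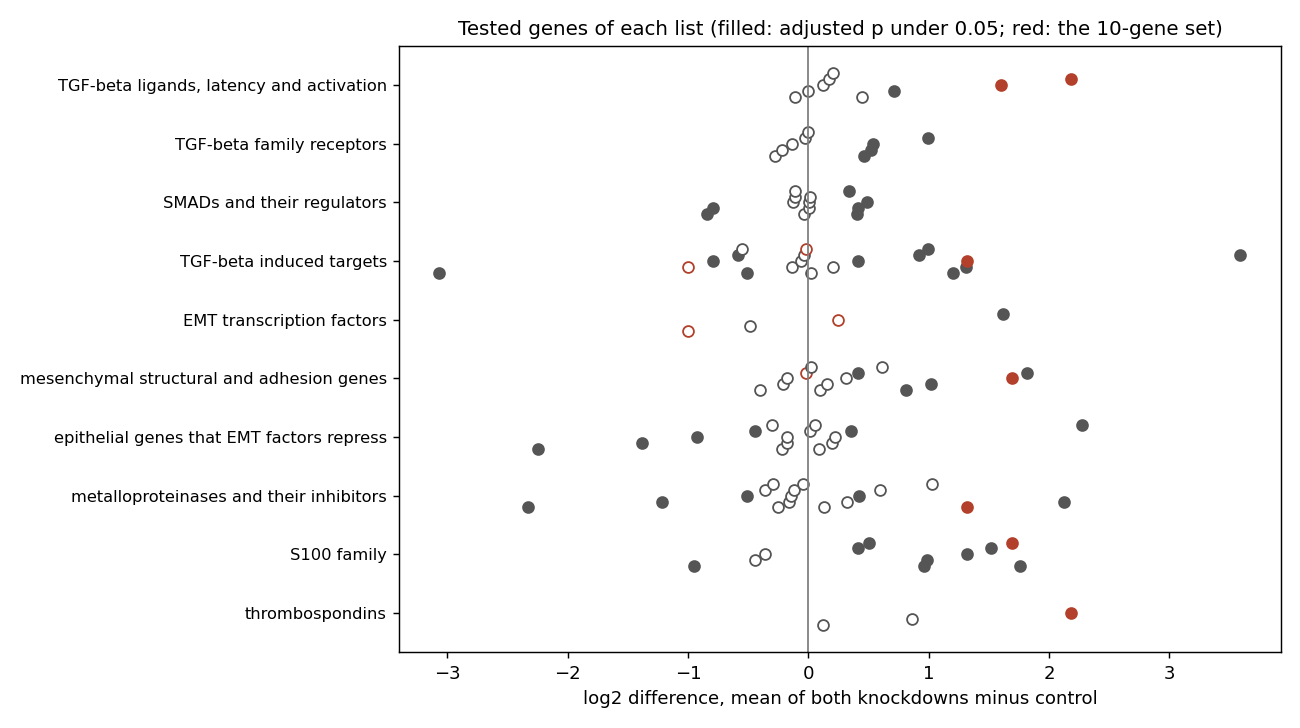
Log2 difference of the mean of both knockdowns from control (x axis) for each tested gene of 10 pathway lists, with filled points at an adjusted p under 0.05 and genes of the 10-gene set in red. LOX stands lowest at -3.07 and CDKN2B highest at 3.59, although with a pseudocount equal to the common median CDKN2B was at 2.07 and KRT19 at 2.17. CDKN2B passed the filter only through the knockdown arrays, and TIMP4 only through control.

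Among mesenchymal structural and adhesion genes 5 of 14 tested rose and 0 fell over both knockdowns (median 0.23, with 14.7% higher and 17.9% lower among all tested genes). In knockdown1 5 rose and 1 fell (14.3% and 19% of all tested genes), and in knockdown2 4 rose and 0 fell (13.7% and 13.9%). Among the 5 over both knockdowns were S100A4 and TPM1, a tropomyosin gene. The TPM1 call ended, for example, with the mean of its probe sets (0.12, limma's adjusted p = 0.483). VCAN, the matrix proteoglycan versican, read 529, 508 and 642 in knockdown1 and 1087, 1035 and 976 in knockdown2, against 176, 221 and 254 in control, a log2 difference of 1.81 (SE 0.13, limma's adjusted p = 1.99e-11). ACTA2, smooth muscle actin, rose by 1.02 (SE 0.13, limma's adjusted p = 4.90e-07) and TPM2, a tropomyosin, by 0.81 (SE 0.18, limma's adjusted p = 6.80e-04), both without overlap. Vimentin (VIM) read 18.9, 12.4 and 15.9 on average in knockdown1, knockdown2 and control and did not pass (limma's adjusted p = 0.926). These averages lie near the common median of 14.1. With 1 array left out the VIM difference ran from -0.75 to 0.68, so the values set only wide limits on VIM. The N-cadherin gene CDH2 gave 0.15 (limma's adjusted p = 0.401), passing at 0.19 only after quantile normalization (limma's adjusted p = 0.0361) and at 0.31 without control replicate 3 (limma's adjusted p = 0.043).

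Among 15 tested epithelial genes that EMT factors repress, 4 fell and 2 rose over both knockdowns (median -0.18, with 17.9% lower and 14.7% higher among all tested genes), and 4 rose and 5 fell on the values as deposited. In knockdown1 3 fell and 2 rose (19% and 14.3% of all tested genes), and in knockdown2 5 fell and 3 rose (13.9% and 13.7%). EPCAM, called in opposite directions in the knockdowns, averaged 1470 in knockdown1, 545 in knockdown2 and 1120 in control. CDH1, which encodes E-cadherin, read 40.3, 19.6 and 21.6 in knockdown1 and 45.1, 38.8 and 32.3 in knockdown2, against 153, 131 and 185 in control. Every knockdown array was far below control, with a log2 difference of -2.25 (SE 0.20, limma's adjusted p = 9.69e-10). The tight junction gene CLDN4 fell by 1.38 (SE 0.27, limma's adjusted p = 1.66e-04), a call that ended with the 6 knockdown arrays as 1 group (limma's adjusted p = 0.0706), and its 3 knockdown1 arrays were below the common median. MAL2, also among the 4 that fell and named after its values were seen, lost its call in that setting too (limma's adjusted p = 0.474). KRT19, a keratin of bile duct cells, went the other way, with a rise of 2.27 (SE 0.14, limma's adjusted p = 1.40e-12). The other that rose was PKP2, named after its values were seen. Its call ended under 2 of 10 alternative settings and for 6 of 9 arrays when left out. The hepatocyte keratin genes KRT8 and KRT18 did not pass (0.09 and 0.01, limma's adjusted p = 0.612 and 0.958).

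Of the metalloproteinases and their inhibitors 17 were tested, 3 rose and 3 fell over both knockdowns (median -0.12), shares near the 14.7% and 17.9% of all tested genes. TIMP1 was alone among the TIMP genes in rising. TIMP3 fell by 0.51 (SE 0.14, limma's adjusted p = 0.00421). TIMP2 gave -0.29 and did not pass (limma's adjusted p = 0.124), but passed at -0.40 without control replicate 2 (limma's adjusted p = 0.0441). TIMP4 averaged 2.17 ± 1.95 in knockdown1, 4.57 ± 4.06 in knockdown2 and 19.3 ± 2.22 in control (SD, n = 3 each). All 6 knockdown arrays were below the common median, so TIMP4, 1 of the 3 that fell, passed the filter only through control. Its place in that count is a description. The TIMP4 call, which ended with a smaller pseudocount (limma's adjusted p = 0.0525), is not read as a measured fold. MMP3, stromelysin 1, was at 364 ± 95.5 in knockdown1, 85.9 ± 26.2 in knockdown2 and 39.2 ± 8.67 in control (SD, n = 3 each; log2 difference over both 2.12, SE 0.19, limma's adjusted p = 8.66e-10). MMP15, a membrane-bound metalloproteinase, fell by 1.22 (SE 0.22, limma's adjusted p = 7.70e-05). The gelatinase genes MMP2 and MMP9 did not pass.

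The S100 family of calcium-binding proteins places S100A4 among its paralogs. Of 18 genes 11 were tested, 8 rose and 1 fell over both knockdowns (median 0.96, with 14.7% higher and 17.9% lower among all tested genes). Of the 8, the calls of S100A13 and S100P ended with the 6 knockdown arrays as 1 group (limma's adjusted p = 0.283 and 0.0671). In knockdown1 6 rose and 2 fell (14.3% and 19% of all tested genes), and in knockdown2 7 rose and 2 fell (13.7% and 13.9%). Between the knockdowns 7 of the 11 were lower in knockdown1 and 0 were higher (10.5% higher and 16.1% lower among all tested genes). S100A3 and S100A6 lie beside S100A4 on chromosome 1 in RefSeq's GRCh38.p14, in the order S100A6, S100A5, S100A4, S100A3, and S100A5 did not pass the filter. S100A6 read 57.8, 35.8 and 37.5 in knockdown1 and 107, 139.5 and 102 in knockdown2, against 31.3, 10.1 and 24.0 in control, and S100A3 read 61.9, 34.7 and 41.8 in knockdown1 and 52.8, 87.6 and 82.7 in knockdown2, against 26.3, 18.6 and 21.8 in control. Like S100A4 and the other 4 of the 7, both were lower in knockdown1 than in knockdown2, with differences of -1.40 for S100A6 (limma's adjusted p = 3.39e-04) and -0.68 for S100A3 (limma's adjusted p = 0.0421), whose arrays overlapped between the knockdowns. S100A11 rose by 1.52 over both knockdowns (SE 0.12, limma's adjusted p = 1.34e-10). The only 1 that fell over both knockdowns, S100A10, the annexin A2 partner p11, gave -0.95 (SE 0.12, limma's adjusted p = 3.58e-07), with all 6 knockdown arrays below control.

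**Figure D5:**
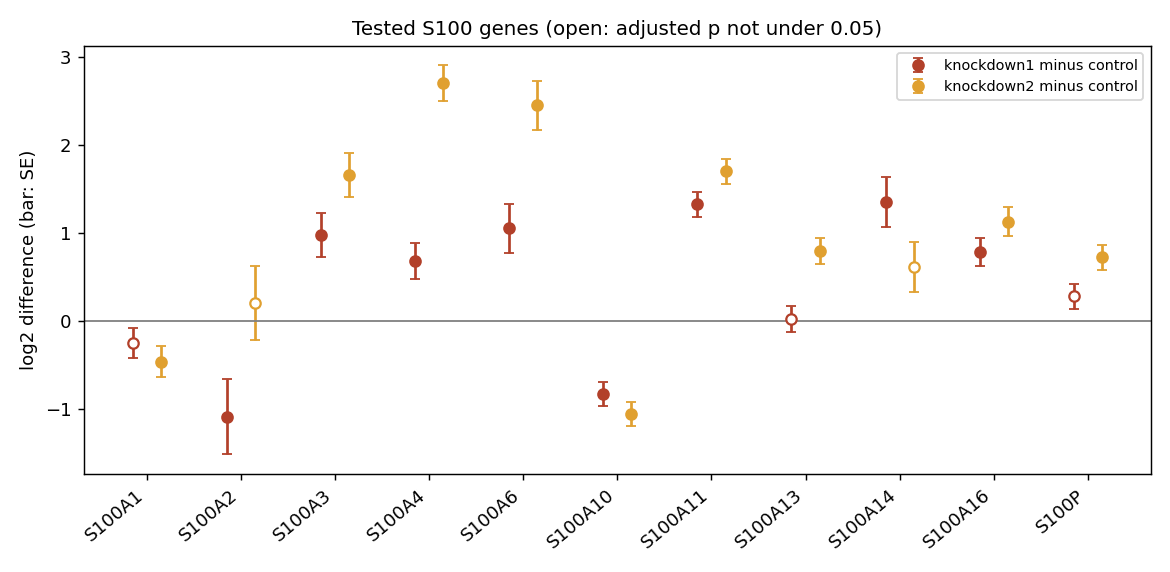
Log2 difference from control (y axis, bars are SE) of the 11 tested S100 genes in knockdown1 and knockdown2, filled where the adjusted p was under 0.05. S100A4 and S100A6 show the widest gaps between the knockdowns among those higher in knockdown2, and S100A10 is below 0 in both.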

How the data were processed

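The deposited values are linear intensity signals per probe set that the authors made with MAS5, per the submitters' processing notes, with the version not given here. The trimmed means of the arrays were equal, but their medians differed by 1.28 times, so each array was multiplied to the common median of 14.1, as a rule set for differences above 1.2 times asked. A pseudocount of 1.41 (0.1 of that median) was added before log2. Of 54675 probe sets 41091 had 1 gene symbol in the platform annotation, and 24565 of these passed the filter. Where a gene had several, the brightest by mean log2 value stood for it. All 9 arrays entered 1 fit of 3 groups in limma 3.58.1 under R 4.3.3 (lmFit, contrasts.fit, eBayes with a variance trend, two-sided, Benjamini-Hochberg). The script was tested on simulated data for the mean of both knockdowns. It recovered 27 of 67 genes changed 1.5-fold, 39 of 67 changed 2-fold and 60 of 66 changed 4-fold, with 11 false calls. Only these genes among the 13056 were changed in the simulation, and there smaller changes were often missed. In the data 4256 genes were called for this comparison. The recovery rates therefore need not hold for the data.

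No 2 arrays of a group shared over 1.37% of their values, and each counted as 1 replicate. The 10 genes, the 10 other pathway lists and the marker lists were chosen with earlier results of these data known. Genes of the pathway lists named besides the 10 are, per list, the 3 called genes with the largest difference over both knockdowns, and paralogs of the 10. Others are said to be named after their values were seen or are given as not passing. For each of the 10 that was called against control, the 2 tested genes with the highest correlation over the 9 arrays are named. Alternatives changed scaling, pseudocount, filter, probe set rule, variance model, samples in the fit, a replicate block and each array left out. Arrays give no counts, so the number of arrays alone limits the precision. Symbols were checked through gene identifiers, and 0 changed.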

Additional observations from a re-analysis of the deposited data

Results flagged for a closer look

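S100A4 differed between the knockdowns when both were set against the same control arrays, with a log2 difference of knockdown1 from knockdown2 of -2.03 (SE 0.20, limma adjusted p = 7.61e-09), and all 3 knockdown1 arrays were lower than all 3 knockdown2 arrays. ZEB1 differed in the same direction by -0.78 (SE 0.15, limma adjusted p = 2.63e-04), again without overlap of the arrays. No group had the 4 samples that a check for outlying arrays needs.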

How the results depend on the processing

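The number of the 10 genes called was 4 in knockdown1 under each of 10 alternative settings and 3 to 4 with 1 array left out. It was 5 to 6 and 5 in knockdown2, 4 to 6 and 4 to 5 for the mean of both knockdowns, and 2 to 3 and 2 between the knockdowns. Taking the mean of all probe sets of a gene moved FN1 to 0.48 in knockdown1 and 0.56 over both knockdowns, TGFBR1 to -0.011 and SMAD2 to -0.66 (limma adjusted p = 0.00451), and made the TGFB1 difference between the knockdowns -0.83 (limma adjusted p = 0.00952). This setting averages bright and dim probe sets, and the cause was not tested further. With the 6 knockdown arrays as 1 group 2205 genes were called against 4256, since differences between the knockdowns then count as spread. Probe sets of the 10 genes called between the knockdowns numbered 2 to 5 with 1 array left out, against 4, and were 2 without knockdown1 replicate 2 or knockdown2 replicate 3. Between the knockdowns, the median over the tested genes was -0.03 after scaling and 0.08 as deposited. Higher calls made up 42.9% in knockdown1 and 39.4% between the knockdowns, and 54.2% and 57.1% on the values as deposited. Same-numbered arrays of different groups had deviations correlated at -0.02 to 0.13, and differently numbered ones at -0.12 to 0.09. Not every array correlated best with its own number. With 3 arrays a group these values cannot settle whether the numbers pair the arrays. With a replicate block 4996, 4265, 4905 and 4147 genes were called in knockdown1, knockdown2, over both and between them, against 4351, 3608, 4256 and 3473, and the counts of the 10 genes were 4, 5, 4 and 2. Dim genes such as SNAI1, SNAI2, TWIST1 and TGFB2 limit what can be said of them.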

Other observations

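Over the 9 arrays the tested genes whose log2 values followed each called gene most closely, by Pearson correlation, were these. TGFB1 was followed by PRMT6 (0.99) and LY96 (0.99), THBS1 by EYA4 (0.98) and SOX4 (0.98), and TIMP1 by FILIP1L (0.99) and LYVE1 (0.99). S100A4 was followed by IER5L (0.99) and GPRC5A (0.99), and ZEB1 by NIPBL (0.99) and QKI (0.99). The arrays fall into 3 groups, and each pair of genes shares its arrays and their scaling, so these values are descriptions.

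Of the 7 endothelial markers 2 passed the filter. PECAM1, an endothelial adhesion gene named after its values were seen, was higher over both knockdowns (0.59, limma adjusted p = 0.00373), and STAB2 averaged 12.3 in knockdown1, 10.4 in knockdown2 and 12.8 in control and was not called. The 7 endothelial markers summed to 93.2 to 115 in knockdown1, 107 to 153 in knockdown2 and 80.0 to 93.0 in control. Their part in the results was not tested.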
